A study of Arabidopsis thaliana with 18 samples.

Results

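The 105 genes described here are known to the array annotation only by a locus code, and their log2 signal was at least 1 lower after treatment with the cytokinin BAP in all 3 zones of the Arabidopsis root that were sampled. They were selected on measured values, from 11799 genes whose annotated symbol is AT, a digit, G and a five-figure number, with the probe set of the highest mean over all arrays standing for each gene. A gene was taken where its untreated mean reached log2 5 in cambium, transition cambium and procambium, and where the BAP mean minus the untreated mean was -1 or lower in each. Of the 4454 locus-code genes that met the untreated level in all 3 zones, the 105 make up 2.36%. Another 33 of the 4454 were raised by at least 1 in all 3. No level was asked of the BAP means, so genes dim without BAP and raised by it are not among the 4454. The differences between BAP and untreated arrays chose the genes, so they are given below as a description, with no test.

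The values come from 18 ATH1 arrays, the Affymetrix whole-genome chip for Arabidopsis, hybridised with RNA of root protoplasts that a fluorescence-activated sorter had selected for GFP. In 16 of them the cells came from wild type Columbia plants carrying ARR15::GFP, with the fluorescent protein held in the endoplasmic reticulum, and were sorted from about 200 pooled roots of 8-day seedlings. Roots were cut along their length into a basal segment (cambium), a middle segment (transition cambium) and an apical segment (procambium), and untreated plants gave 3, 2 and 2 arrays of these. Plants grown for 6 days on standard medium and then for 48 h with 100 nM BAP, a synthetic cytokinin, gave 3 arrays per segment. The remaining 2 arrays are of untreated Columbia plants carrying ARR5::GFP, 6 days old, whose lower roots were not dissected; the labels place that reporter in procambium and lateral root cap. The sort depends on reporters from promoters that cytokinin itself switches on, so the cells collected may differ between treated and untreated roots. No batch is given, so a batch effect and the treatment cannot be told apart, and in sorted bulk RNA fewer cells of a type and less RNA per cell cannot be told apart either.

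Cytokinin is perceived by membrane histidine kinases, which pass a phosphate through carrier proteins to B-type response regulators in the nucleus, and these switch on target genes. The A-type response regulators, ARR5 and ARR15 among them, are rapid targets of this pathway and dampen it in turn. In vascular tissue cytokinin is known for promoting the divisions of procambium and cambium, the meristematic cells that give rise to xylem and phloem.

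A few facts about the libraries bear on all that follows. The ARR15 transcript stood at log2 2.66 ± 0.26 (SD, n = 3), 3.02 ± 0.14 (n = 2) and 2.72 ± 0.05 (n = 2) in untreated cambium, transition cambium and procambium, and at 6.59 ± 0.23, 5.93 ± 0.59 and 6.89 ± 0.72 after BAP (n = 3 each). Of 9 listed cambium and procambium markers, 5 have a probe set, and CLE41, CLE44 and MOL1, genes of vascular signalling, were brighter in both cambium zones than in procambium with and without BAP. LHW, a regulator of vascular divisions, had means of 8.87, 9.60 and 8.06 in the 3 untreated zones and 8.43, 8.16 and 8.18 with BAP, and PHV, a vascular patterning gene, 8.65, 8.78 and 7.80 without BAP and 8.44, 8.89 and 6.19 with it. CLE44 lay below log2 5 on every procambium and ARR5::GFP array. Other cell types are represented by few probe sets, with none of 7 xylem markers and none of 4 phloem markers. The root cap polygalacturonase gene RCPG, 1 of 5 root cap markers, had means of 2.97, 2.47 and 3.35 in the untreated zones, 2.74, 4.99 and 10.95 in the same zones after BAP, and 14.01 in ARR5::GFP cells. LBD16, a regulator of lateral root initiation and 1 of 3 pericycle markers, had means of 6.40, 5.80 and 6.77 without BAP and 3.05, 3.80 and 5.69 with it. The photosynthesis gene RCA had means of 9.70, 6.18 and 4.68 without BAP and 7.01, 5.86 and 4.85 with it, and LHCB4.1, a light-harvesting protein gene, 10.81, 8.72 and 6.28 without BAP and 9.88, 9.09 and 7.22 with it. EXPA7, a root hair expansin gene, had means of 3.04, 2.34 and 2.82 without BAP and 2.36, 2.34 and 5.18 with it. The part of these shifts in the results below, the BAP drop included, was not tested. Across probe sets, which are not independent of each other, replicate arrays correlated between r = 0.963 and r = 0.989, and no pair of arrays held identical values.

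The BAP difference of the 105 genes had a median of -1.61 in cambium, -1.72 in transition cambium and -1.68 in procambium, while over the 4454 locus-code genes at log2 5 or more it was -0.02, -0.12 and -0.10. In a single zone, a drop of 1 or more was seen in 9.43% of those genes in cambium, 9.43% in transition cambium and 9.97% in procambium. A rise of as much was seen in 6.47%, 4.13% and 6.89%. These shares leave out genes dim without BAP and raised by it, since the level was asked of untreated means only. Drops and rises are therefore not weighed against each other. The largest drops were -4.89 in cambium, -4.80 in transition cambium and -4.36 in procambium. The one in transition cambium was of AT3G01260, with all BAP arrays there below log2 5, where a drop does not measure the size, as explained below. Averaged over the zones, the drop ranged from -4.05 to -1.15 with a median of -1.74. The deposited means differed by at least 2 in all 3 zones for 14 genes. All BAP arrays lay below all untreated arrays of the same zone for 92 genes in cambium, 98 in transition cambium and 93 in procambium, and in every zone for 75. Of all 4454 locus-code genes at log2 5 or more, 19.1%, 28.2% and 20.7% were separated in the same direction in these zones, and nothing is read from the counts, since the rule used these values.

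**Figure D1:**
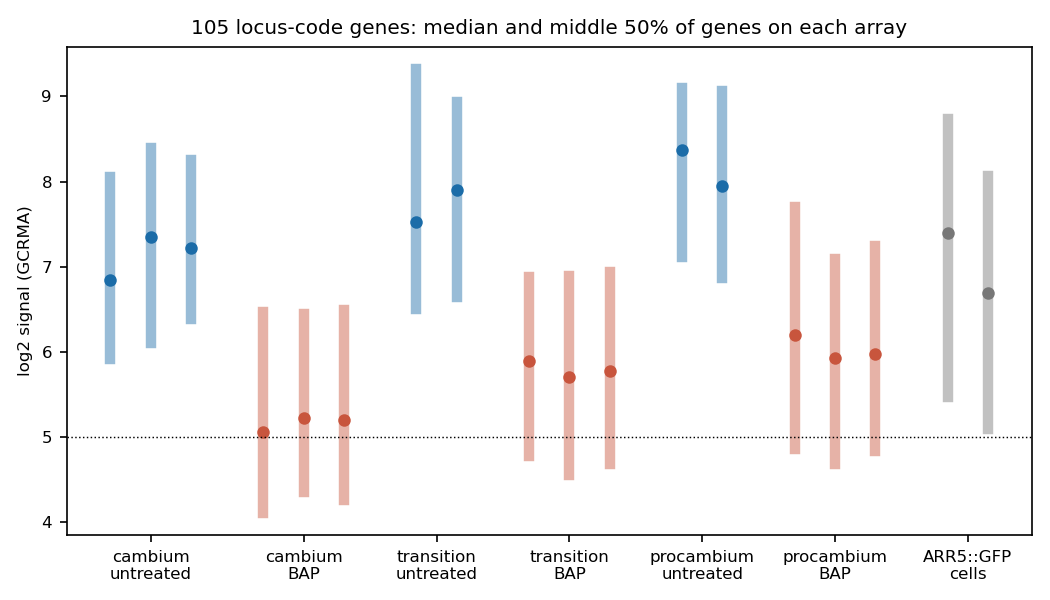
Log2 signal (vertical axis) of the 105 genes on each of the 18 arrays, in groups by zone, treatment and reporter; points are medians over the genes and bars the middle 50% of genes, and the dotted line is log2 5. The median lies between 6.85 and 8.37 on the untreated ARR15::GFP arrays and between 5.06 and 6.20 on the BAP arrays.

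The middle of the set lay lower on every BAP array than on any untreated one. The median log2 signal over the 105 genes was 6.85, 7.35 and 7.22 on the untreated cambium arrays, 7.52 and 7.90 on transition cambium and 8.37 and 7.95 on procambium. With BAP it was 5.06, 5.22 and 5.20 in cambium, 5.89, 5.71 and 5.78 in transition cambium and 6.20, 5.93 and 5.98 in procambium. Cambium had the lowest medians and procambium the highest in both states, although procambium lay only narrowly above transition cambium. GCRMA, the method behind the deposited values, places dim probe sets close to a floor, so a fold against a group below log2 5 depends on its background model. A fold is therefore given as a bound, computed against log2 5, for any group with no array at that level. Log2 drops are differences of the deposited means and, for such groups, do not measure the size. After BAP all 3 arrays lay below it for 36 genes in cambium, 22 in transition cambium and 21 in procambium, and in every zone for 13 genes. Every BAP array stayed at log2 5 or more in every zone for 36 genes.

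The largest drop of a gene was in cambium for 32 genes, in transition cambium for 38 and in procambium for 35, and the smallest in 37, 30 and 38. This ranking rests in part on the groups wholly below log2 5 counted above, where a drop does not measure the size. The median range between a gene's 3 drops was 0.82, with 29 genes within 0.5 and 10 genes spanning 2 or more. Since a gene had to pass in each zone to be counted, these ranges leave out genes that dropped in some zones only, and the difference between zones was not tested.

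**Figure D2:**
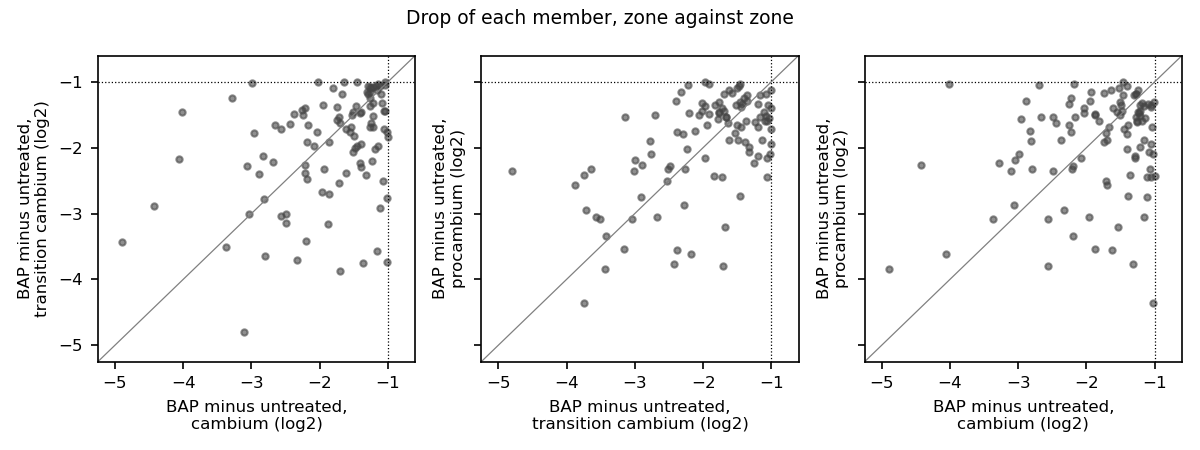
Difference of BAP minus untreated means (log2) of each of the 105 genes, plotted zone against zone for the pairs of cambium, transition cambium and procambium, 1 point per gene. The limit of -1 on every axis is set by the rule, the largest drop is -4.89 in cambium, and the zones' medians are -1.61, -1.72 and -1.68.

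The 12 genes with the largest mean drop are given with every array, as log2 signals. Their ranking uses the deposited means, also for groups wholly below log2 5, where a drop does not measure the size. AT4G30450 read log2 10.47, 10.63 and 10.08 in untreated cambium, 10.51 and 10.78 in untreated transition cambium and 11.06 and 9.59 in untreated procambium. After BAP AT4G30450 read 5.52, 5.51 and 5.47 in cambium, 6.80, 7.26 and 7.59 in transition cambium and 6.28, 6.16 and 7.03 in procambium. Its BAP means were 29.7-fold lower in cambium, 10.8-fold in transition cambium and 14.3-fold in procambium. The untreated ARR15::GFP arrays were all at 9.59 or above and the BAP arrays all at 7.59 or below, and the drop in cambium, -4.89, was the largest of the 105 genes in any zone. The ARR5::GFP arrays read 12.11 and 8.69, far apart from each other. Its neighbour on chromosome 4, AT4G30460, with no gene between them in the reference table, is also among the 105, and the reading of both is taken up again below.

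AT3G01260 read log2 5.63, 4.80 and 5.43 in untreated cambium, 7.56 and 7.44 in untreated transition cambium and 6.64 and 4.21 in untreated procambium. After BAP AT3G01260 read 2.17, 2.17 and 2.17 in cambium, 2.18, 3.15 and 2.77 in transition cambium and 3.49, 2.88 and 2.87 in procambium. All untreated ARR15::GFP arrays but 2 lay above log2 5 and all BAP arrays below, the 3 cambium ones at the lowest value of the data set, so that the gene was at least 1.22-fold lower in cambium, at least 5.67-fold in transition cambium and at least 1.35-fold in procambium. AT3G62160 read log2 6.65, 7.40 and 6.84 in untreated cambium, 9.32 and 8.94 in untreated transition cambium and 8.41 and 5.94 in untreated procambium. After BAP AT3G62160 read 3.86, 2.83 and 4.08 in cambium, 6.41, 5.59 and 4.86 in transition cambium and 4.08, 4.09 and 4.08 in procambium. Drops were -3.37 in cambium, -3.51 in transition cambium and -3.09 in procambium, and the groups did not overlap in any zone; the bounds for AT3G62160 are at least 3.9-fold in cambium and at least 4.52-fold in procambium. In procambium the BAP arrays lay close together and the untreated arrays far apart. AT4G39675 read log2 6.82, 8.05 and 8.42 in untreated cambium, 7.58 and 7.55 in untreated transition cambium and 9.07 and 9.81 in untreated procambium. After BAP AT4G39675 read 3.13, 3.46 and 4.51 in cambium, 4.32, 6.43 and 5.43 in transition cambium and 6.08, 4.98 and 6.38 in procambium. The drops of AT4G39675 were -4.06 in cambium, -2.17 in transition cambium and -3.62 in procambium, with all BAP cambium arrays below log2 5 and a bound of at least 6.79-fold there. In transition cambium the untreated arrays agreed closely, while the BAP arrays were spread.

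AT5G43180 read log2 9.38, 8.87 and 8.25 in untreated cambium, 9.46 and 9.54 in untreated transition cambium and 9.15 and 7.45 in untreated procambium. After BAP AT5G43180 read 4.08, 5.07 and 4.07 in cambium, 6.09, 6.96 and 6.80 in transition cambium and 6.09, 5.94 and 6.09 in procambium. The drop of AT5G43180 was largest in cambium, -4.43, followed by -2.89 in transition cambium and -2.26 in procambium, without overlap in any zone. AT2G27740 read log2 6.15, 7.46 and 8.24 in untreated cambium, 10.91 and 9.89 in untreated transition cambium and 9.51 and 9.94 in untreated procambium. After BAP AT2G27740 read 5.08, 7.13 and 6.58 in cambium, 8.07, 5.08 and 6.84 in transition cambium and 6.65, 4.37 and 5.08 in procambium. For AT2G27740 the cambium arrays overlapped between the states and their means differed by -1.02, while transition cambium (-3.74) and procambium (-4.36) did not overlap. AT5G48740 read log2 4.57, 4.87 and 5.90 in untreated cambium, 8.05 and 6.47 in untreated transition cambium and 6.18 and 5.11 in untreated procambium. After BAP AT5G48740 read 3.31, 2.76 and 2.27 in cambium, 4.64, 3.77 and 2.26 in transition cambium and 2.26, 2.95 and 2.90 in procambium. Every BAP array of AT5G48740 lay below log2 5, as did 2 untreated cambium arrays. Its bounds are at least 1.08-fold lower in cambium, at least 4.8-fold in transition cambium and at least 1.57-fold in procambium.

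AT2G28410 read log2 6.49, 6.78 and 5.60 in untreated cambium, 9.56 and 8.09 in untreated transition cambium and 7.23 and 7.96 in untreated procambium. After BAP AT2G28410 read 4.30, 4.04 and 3.94 in cambium, 5.67, 5.26 and 5.29 in transition cambium and 4.85, 3.87 and 4.04 in procambium. Transition cambium stood highest for AT2G28410 in both states, with drops of -2.20 in cambium, -3.42 in transition cambium and -3.34 in procambium and bounds of at least 2.45-fold in cambium and at least 6.04-fold in procambium. AT3G24450 read log2 5.89, 6.64 and 7.29 in untreated cambium, 7.52 and 7.14 in untreated transition cambium and 5.28 and 6.74 in untreated procambium. After BAP AT3G24450 read 3.83, 3.79 and 3.79 in cambium, 3.81, 3.47 and 3.79 in transition cambium and 3.82, 3.47 and 3.79 in procambium. The BAP arrays of AT3G24450 lay between 3.47 and 3.83 in all zones, near a common low value, so its drops are bounds of at least 3.05-fold, at least 5.03-fold and at least 2.02-fold in cambium, transition cambium and procambium. AT4G09890 read log2 6.68, 8.76 and 7.57 in untreated cambium, 9.52 and 8.85 in untreated transition cambium and 8.02 and 7.36 in untreated procambium. After BAP AT4G09890 read 5.27, 5.85 and 4.22 in cambium, 6.44, 6.21 and 5.78 in transition cambium and 5.06, 3.29 and 5.45 in procambium. AT4G09890 dropped by similar amounts in the 3 zones, with differences of -2.56 in cambium, -3.04 in transition cambium and -3.09 in procambium, and no BAP array reached an untreated array of its zone.

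AT4G08160 carries the name ATXYN3 among the synonyms of the reference table, a name of the xylanase family of enzymes, which cut the xylan of cell walls. AT4G08160 read log2 7.60, 8.27 and 7.73 in untreated cambium, 10.10 and 10.20 in untreated transition cambium and 8.66 and 8.57 in untreated procambium. After BAP AT4G08160 read 5.84, 4.56 and 7.57 in cambium, 7.13, 6.26 and 7.57 in transition cambium and 4.88, 5.78 and 4.56 in procambium. Transition cambium was highest without BAP, and the drops were -1.88 in cambium, -3.16 in transition cambium and -3.54 in procambium. In cambium the groups were separated narrowly, since BAP array 3 at 7.57 lay just under untreated array 1 at 7.60. AT1G69080 read log2 6.70, 7.68 and 6.10 in untreated cambium, 7.34 and 7.97 in untreated transition cambium and 9.07 and 8.66 in untreated procambium. After BAP AT1G69080 read 3.74, 3.55 and 4.08 in cambium, 5.41, 4.03 and 4.52 in transition cambium and 6.09, 6.83 and 7.12 in procambium. Drops were -3.04, -3.00 and -2.18 in the 3 zones for AT1G69080, whose procambium arrays stayed above log2 6 with BAP while all its BAP cambium arrays lay below log2 5, at least 3.55-fold lower than without BAP.

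**Figure D3:**
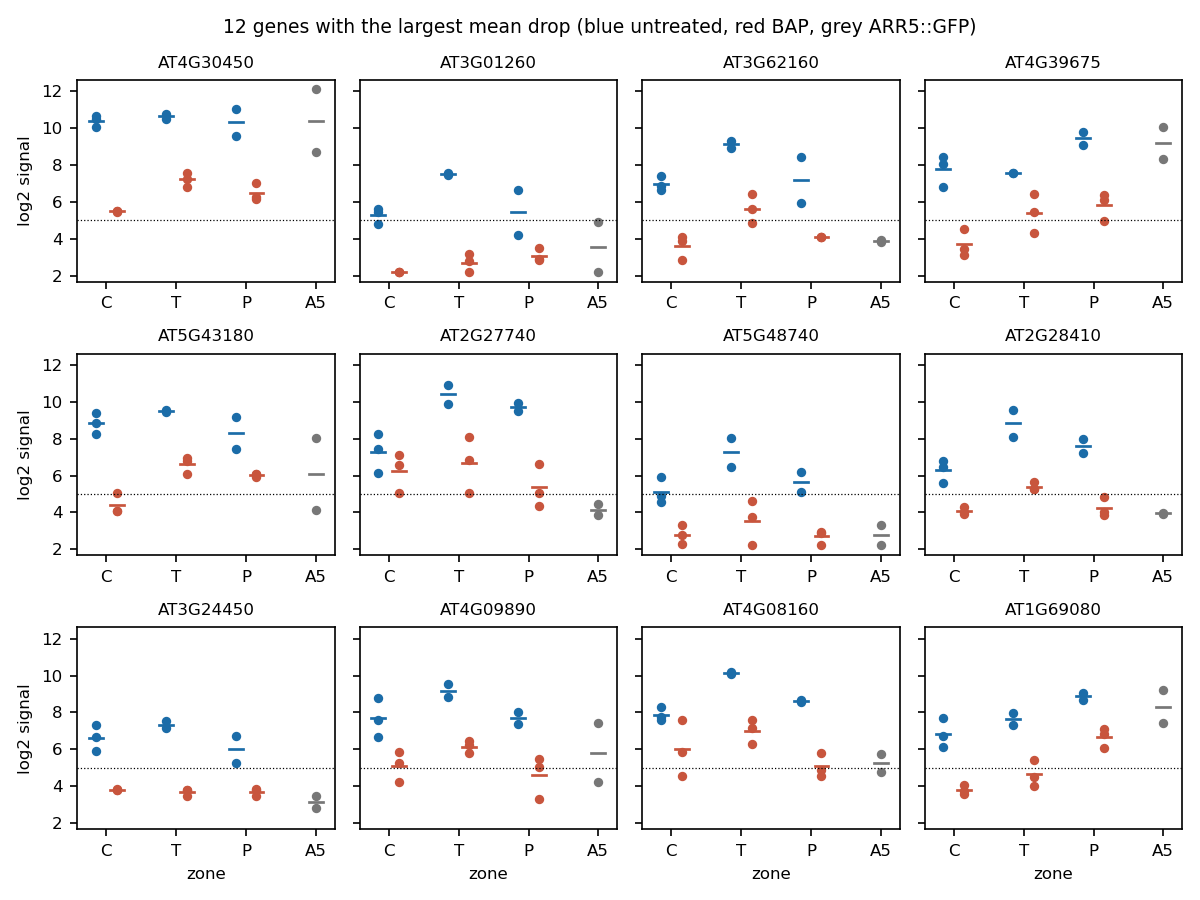
Log2 signal (vertical axis) of the 12 genes with the largest mean drop, 1 panel per gene, with every array as a point for cambium (C), transition cambium (T), procambium (P) and ARR5::GFP cells (A5), untreated and with BAP; short lines are group means and the dotted line is log2 5. In AT4G30450 all untreated points of the 3 zones lie at 9.59 or above and all BAP points at 7.59 or below.

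The remaining 93 genes had mean drops between -2.74 and -1.15. The 10 genes whose drops spanned 2 or more between zones, picked after their values were seen, were uneven in different ways. AT4G33420 read log2 10.46, 10.49 and 10.05 in untreated cambium, 10.59 and 9.98 in untreated transition cambium and 8.37 and 6.99 in untreated procambium. After BAP AT4G33420 read 6.73, 6.46 and 5.74 in cambium, 8.82, 8.51 and 9.15 in transition cambium and 7.73, 5.93 and 6.26 in procambium. AT4G33420 differed by -4.02 in cambium, -1.46 in transition cambium and -1.04 in procambium, so that the cambium and transition cambium readings, which overlap without BAP, lay apart with it, and in procambium the states overlapped. AT2G27740 spanned the widest range, 3.33, with its smallest drop in cambium, and AT3G01260 and AT5G43180 are described above. AT3G01190 dropped by -3.28 in cambium, -1.25 in transition cambium and -2.24 in procambium. In transition cambium its untreated arrays read 3.36 and 8.60 and its BAP arrays 5.25, 5.78 and 3.15. The states overlapped there, and the drop rests on untreated array 2. AT1G15640 dropped by -2.56, -1.71 and -3.79 in the same zones. All its BAP arrays in cambium and transition cambium lay below log2 5, with bounds of at least 1.96-fold and at least 1.02-fold. Like AT2G27740, AT2G17710 dropped least in cambium (-1.32), where the states overlapped, and most in procambium (-3.77). AT2G03200, AT4G27435 and AT1G56720 dropped least in cambium, by -1.70, -1.36 and -1.16, and most in transition cambium, by -3.87, -3.75 and -3.57. In cambium the states overlapped for AT4G27435 and AT1G56720 but not for AT2G03200. No test of these ranges is given, since the drops chose the genes.

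The 6 genes whose probe sets had the highest untreated signal include AT4G30450 above, and here the floor plays no part, since every BAP array stayed above log2 5. Signals of different probe sets are not compared with each other. AT1G48750 read log2 11.92, 11.72 and 11.90 in untreated cambium, 11.67 and 12.36 in untreated transition cambium and 11.63 and 11.26 in untreated procambium. After BAP AT1G48750 read 9.44, 8.99 and 8.14 in cambium, 11.16, 10.71 and 11.11 in transition cambium and 10.24, 8.83 and 8.99 in procambium. The BAP drop of AT1G48750 was -2.99 in cambium and -2.09 in procambium but -1.02 in transition cambium, close to the limit of the rule. AT2G27080 read log2 11.06, 10.79 and 10.82 in untreated cambium, 11.28 and 11.47 in untreated transition cambium and 10.53 and 9.06 in untreated procambium. After BAP AT2G27080 read 9.26, 9.71 and 9.32 in cambium, 9.50, 8.87 and 9.83 in transition cambium and 8.61, 8.61 and 9.14 in procambium. For AT2G27080 the drops were -1.46 in cambium, -1.97 in transition cambium and -1.01 in procambium, and the procambium arrays of the states overlapped. AT2G20625 read log2 9.88, 10.21 and 10.97 in untreated cambium, 10.12 and 10.25 in untreated transition cambium and 11.12 and 11.43 in untreated procambium. After BAP AT2G20625 read 9.20, 9.32 and 9.38 in cambium, 9.07, 9.30 and 9.17 in transition cambium and 9.49, 9.03 and 9.47 in procambium. AT2G20625 dropped most in procambium, by -1.94, against -1.05 and -1.01 in the other zones, and its groups did not overlap.

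AT5G40020 read log2 9.09, 10.83 and 10.09 in untreated cambium, 12.14 and 11.73 in untreated transition cambium and 9.06 and 9.67 in untreated procambium. After BAP AT5G40020 read 8.35, 6.06 and 8.12 in cambium, 9.77, 8.38 and 8.63 in transition cambium and 8.61, 6.66 and 5.75 in procambium. For AT5G40020 the drops were -2.49 in cambium, -3.01 in transition cambium and -2.36 in procambium, with wide spread among the BAP arrays of cambium and procambium but no overlap. AT2G17660 read log2 10.29, 10.10 and 11.56 in untreated cambium, 9.94 and 11.16 in untreated transition cambium and 10.01 and 9.27 in untreated procambium. After BAP AT2G17660 read 8.37, 8.97 and 9.01 in cambium, 8.40, 7.13 and 8.02 in transition cambium and 8.58, 7.31 and 8.52 in procambium. AT2G17660 differed by -1.87, -2.70 and -1.50 on the log2 scale, and its groups did not overlap.

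Besides ATXYN3, 2 more of the 105 genes have a name in the reference table, and they were chosen for that name, after their values were seen. AT2G26690 is listed as NPF6.2, of the NRT1/PTR family of membrane transporters that carry nitrate, peptides and other small solutes. AT2G26690 read log2 9.36, 9.39 and 8.84 in untreated cambium, 9.44 and 9.56 in untreated transition cambium and 8.16 and 8.78 in untreated procambium. After BAP AT2G26690 read 7.37, 7.87 and 6.76 in cambium, 7.56, 7.49 and 7.68 in transition cambium and 6.81, 6.90 and 7.22 in procambium. NPF6.2 was 3.65-fold lower after BAP in cambium, 3.79-fold in transition cambium and 2.82-fold in procambium, without overlap and well above the floor on all arrays. AT2G41480 is listed as PRX25, a plant peroxidase, a family of enzymes that use hydrogen peroxide to oxidise substrates. AT2G41480 read log2 5.96, 5.04 and 7.11 in untreated cambium, 5.69 and 6.33 in untreated transition cambium and 5.87 and 5.66 in untreated procambium. After BAP AT2G41480 read 4.67, 4.51 and 4.70 in cambium, 4.56, 4.35 and 4.70 in transition cambium and 4.71, 4.70 and 4.70 in procambium. The BAP arrays of PRX25 all lay at 4.35 to 4.71, below log2 5 and nearly level between zones, and the bounds were at least 2.05-fold in cambium, at least 2.01-fold in transition cambium and at least 1.7-fold in procambium. The reference table names no function for the remaining 102 genes, and none is given here.

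The limits of the rule fall among closely spaced values. Just inside its limit of -1 were AT3G56810 (weakest drop -1.0024, in cambium), AT5G59960 (-1.0056, in transition cambium) and AT2G04520 (-1.0064, in cambium). Just outside were AT1G10750 at -0.9995, AT1G33700 at -0.9902 and AT1G80690 at -0.9868. On the side of the untreated level, AT5G67390 (5.0103), AT1G15640 (5.0354) and AT3G56480 (5.0421) were just inside, while AT1G09440 (4.8156), AT4G17215 (4.7478) and AT3G25930 (4.5954) dropped by enough in every zone but were too dim. The same values are met by 13 genes that have a symbol of their own, which are not counted here.

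Differences between zones were no criterion of the rule, and they were tested for all probe sets with limma's moderated test. Calls used a Benjamini-Hochberg adjustment at 0.05. The arrays are those that chose the genes, and the untreated means compared here entered the rule for the level and for the drop. This favours genes that read high on these arrays, perhaps unequally in groups of 3, 2 and 2 arrays. The counts and p-values of the zone comparisons are therefore not independent of how the genes were chosen. The question was where along the root the 105 genes stood high. In untreated roots most of those called were lower in cambium than in procambium: 34 genes (32.4%) were lower and 4 (3.81%) higher. Among all 13202 probe sets tested, 17.4% were lower and 18.4% higher in cambium, and among the 4349 other locus-code genes at log2 5 or more in every untreated zone, 15.5% and 13.1%. The median difference was -0.75 for the 105 genes and -0.013 for all probe sets. After subtracting each array's own median, 42 of the 105 were lower and 3 higher, and the shares over all probe sets turned from more higher to more lower, at 15.2% higher and 21.8% lower. Fewer genes were called, 25, without untreated cambium array 1. Fewer were also called without either procambium array, which leaves 1 array in that group. The shares of all probe sets in these runs are not given beside the counts, so nothing about the 105 genes is read from the fall. Both photosynthesis markers with a probe set were brighter in cambium, with means of 9.70 for RCA and 10.81 for LHCB4.1 in untreated cambium against 4.68 and 6.28 in procambium; their part in the result was not tested.

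**Figure D4:**
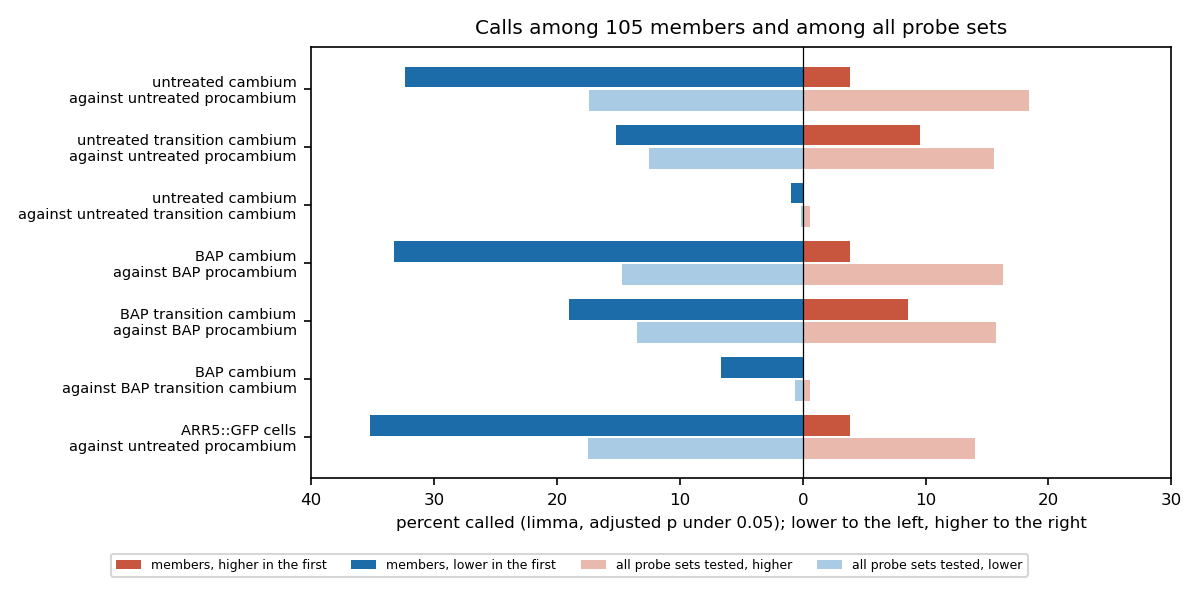
Percent of genes called higher or lower (limma, adjusted p under 0.05) in the 7 comparisons, for the 105 genes and for all probe sets tested. In cambium against procambium 32.4% of the 105 genes were lower without BAP and 33.3% with BAP, beside 17.4% and 14.7% of all probe sets.

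The 5 called genes with the largest shift towards procambium were AT5G60350, AT5G12880, AT2G37440, AT1G15640 and AT2G38090. AT5G60350 read 4.62, 6.05 and 6.39 in untreated cambium and 8.85 and 9.05 in procambium, a difference of -3.26 (SE 0.61, adjusted p = 0.000909). Cambium array 1 of AT5G60350 lay below log2 5 and the procambium arrays were nearly equal. AT5G12880 read 4.35, 6.90 and 7.70 in cambium and 8.75 and 9.85 in procambium, a difference of -2.99 (SE 0.75, adjusted p = 0.00687). Its cambium arrays are spread over a wide range, and without cambium array 1 the difference was -2.00. The call on AT5G12880 was lost without untreated procambium array 2 (adjusted p = 0.0749). AT2G37440 read 4.43, 5.01 and 5.75 in cambium and 7.97 and 7.59 in procambium, a difference of -2.72 (SE 0.58, adjusted p = 0.00237). AT1G15640 read 5.5, 5.06 and 7.34 in cambium and 8.67 and 8.60 in procambium, a difference of -2.67 (SE 0.56, adjusted p = 0.00229). For both genes, every cambium array lay below both procambium arrays. AT2G38090 read 5.69, 6.20 and 6.39 in cambium and 8.74 and 8.59 in procambium, a difference of -2.57 (SE 0.41, adjusted p = 0.000317), with close replicates in both zones.

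The 4 genes higher in cambium were AT4G33420, AT4G27654, AT4G29890 and AT2G27080. AT4G33420 read 10.46, 10.49 and 10.05 in cambium and 8.37 and 6.99 in procambium, a difference of 2.65 (SE 0.51, adjusted p = 0.00112). AT4G27654 read 10.64, 11.34 and 10.17 in cambium and 9.50 and 9.32 in procambium, a difference of 1.31 (SE 0.42, adjusted p = 0.0243). Cambium was above procambium on all arrays of both genes. AT4G29890 differed by 1.23 (SE 0.35, adjusted p = 0.0132), with cambium arrays at 7.04, 7.11 and 7.02 and procambium arrays at 5.53 and 6.13. AT2G27080 differed by 1.10 (SE 0.38, adjusted p = 0.0335), with means of 10.89 ± 0.15 (SD, n = 3) and 9.79 ± 1.04 (n = 2). The call on AT4G27654 was lost without untreated cambium array 2 or untreated procambium array 1 or 2 (adjusted p from 0.0709 to 0.112). The call on AT4G29890 was lost without untreated procambium array 1 (adjusted p = 0.13). The call on AT2G27080 was lost without untreated cambium array 1 or 2 or 3 or untreated procambium array 2 (adjusted p from 0.0523 to 0.492). Without procambium array 2 the AT2G27080 difference was 0.36, and with centred arrays its call was lost too (adjusted p = 0.0648). The call on AT4G33420 held without any 1 of these arrays, with a difference of 1.96 without procambium array 2 and 3.34 without procambium array 1.

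Transition cambium differed from procambium in fewer of the 105 genes, 16 lower (15.2%) and 10 higher (9.52%), beside 12.5% and 15.6% of all probe sets. The median difference was -0.17, against 0.124 over all probe sets, and the latter was -0.088 with arrays centred on their medians. With that centring 20 genes were lower and 7 higher, beside 16.1% and 12.1% of all probe sets. Fewer genes were called without transition cambium array 1 or procambium array 2, each of which leaves 1 array in its group. Nothing is read from this, since the shares of all probe sets are not set beside it. Without procambium array 1 the median was 0.03. These comparisons use the same procambium arrays as those above. The 5 largest shifts to procambium include AT1G15640 at -3.60 (SE 0.62, adjusted p = 0.00073), AT5G12880 at -3.54 (SE 0.82, adjusted p = 0.00562), AT5G60350 at -3.01 (SE 0.66, adjusted p = 0.004) and AT2G37440 at -2.57 (SE 0.63, adjusted p = 0.00802) again. Their transition cambium arrays read 4.55 and 5.52 for AT1G15640, 5.84 and 5.68 for AT5G12880, 4.79 and 7.09 for AT5G60350 and 4.54 and 5.89 for AT2G37440. Each of these lay below both procambium arrays. The call on AT5G12880 was lost without untreated procambium array 2 (adjusted p = 0.055). The call on AT5G60350 was lost without untreated transition cambium array 1 (adjusted p = 0.0704). The call on AT2G37440 was lost without untreated transition cambium array 1 (adjusted p = 0.104). Without transition cambium array 1 the AT5G60350 difference was -1.86. AT3G01190 had the largest difference, -6.68 (SE 1.34, adjusted p = 0.00222), with procambium at 12.86 and 12.47 and transition cambium at 3.36 and 8.60. The pair of transition cambium arrays disagree for AT3G01190, and the difference was -4.06 without array 1 (adjusted p = 0.036) and -9.30 without array 2 (adjusted p = 0.000228).

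In the other direction AT4G33420 differed by 2.60 (SE 0.55, adjusted p = 0.00324), with transition cambium at 10.59 and 9.98. AT3G56730 differed by 2.77 (SE 0.87, adjusted p = 0.0284), AT5G40020 by 2.57 (SE 0.87, adjusted p = 0.0383), AT3G01260 by 2.07 (SE 0.61, adjusted p = 0.0204) and AT3G62160 by 1.95 (SE 0.67, adjusted p = 0.0409). AT3G56730 read 10.47 and 7.90 in transition cambium and 6.51 and 6.32 in procambium, so that most of its difference lies on transition cambium array 1, without which it was 1.49. For AT3G01260 and AT3G62160 it lies on the dim procambium array 2, without which they differed by 0.86 and 0.72. AT5G40020 was above procambium on both transition cambium arrays, and AT3G01260 reached log2 5 on 1 of 2 procambium arrays. Centring the arrays ended the calls on AT5G40020 (adjusted p = 0.0565) and AT3G62160 (adjusted p = 0.0592). The call on AT3G56730 was lost without untreated transition cambium array 1 or untreated procambium array 1 or 2 (adjusted p from 0.0767 to 0.322). The call on AT5G40020 was lost without untreated transition cambium array 1 or 2 or untreated procambium array 1 or 2 (adjusted p from 0.0819 to 0.171). The call on AT3G01260 was lost without untreated transition cambium array 1 or 2 or untreated procambium array 2 (adjusted p from 0.0652 to 0.29). The call on AT3G62160 was lost without untreated transition cambium array 1 or 2 or untreated procambium array 2 (adjusted p from 0.087 to 0.456). The call on AT4G33420 held when any of these arrays was left out, with 1.91 to 3.30 as its values without either procambium array. Untreated cambium and transition cambium differed in few single genes: 1 of the 105 was lower in cambium (0.952%) and 0 were higher (0%), beside 0.159% and 0.598% of all probe sets, and 24 of the 105 had an unadjusted limma p under 0.05, as did 9.3% of all probe sets. The gene was AT2G28410, at -2.54 (SE 0.47, adjusted p = 0.0151). The call on AT2G28410 was lost without untreated cambium array 3 or untreated transition cambium array 1 (adjusted p from 0.0638 to 0.328). Its difference was -1.80 without transition cambium array 1. The count was 0 without cambium array 3 or transition cambium array 1, 3 without cambium array 2 and 2 without transition cambium array 2.

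The zones were also compared on the BAP arrays. The rule used the untreated and the BAP mean of every zone, so the values of the 2 states are tied by how the genes were chosen and are not an independent repeat. Of the 105 genes 35 were lower in BAP cambium than in BAP procambium (33.3%) and 4 higher (3.81%), beside 14.7% and 16.3% of all probe sets, and the median difference was -0.50 against 0.081. The lower genes without and with BAP overlapped in 25, which is 73.5% of the 34 and 71.4% of the 35. Over all probe sets tested, 1049 were lower in cambium in both states, 45.7% of those lower without BAP and 54% of those lower with it. Of the 105, no gene was called in opposite directions. The same count over all probe sets is not given here, so nothing is read from it. Among the 25 were AT5G60350, AT5G12880, AT2G37440, AT1G15640 and AT2G38090, named above, and AT4G18425, AT5G07080 and AT1G69080. With BAP, AT1G15640 had means of 3.40 in cambium and 4.84 in procambium, with 1 of 3 procambium arrays at log2 5 or more, so no size is given. The counts with BAP, lower and higher, include such comparisons between dim groups, and how many is not given here. Of the higher ones AT4G27654 was shared. In all, 26 genes were called in both states, 12 without BAP only, 13 with BAP only and 54 in neither; whether the zone difference itself changed with BAP was not tested, because the rule used the BAP differences. The RCPG mean was 10.95 in BAP procambium and 2.74 in BAP cambium, and the part of this in the result was not tested.

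**Figure D5:**
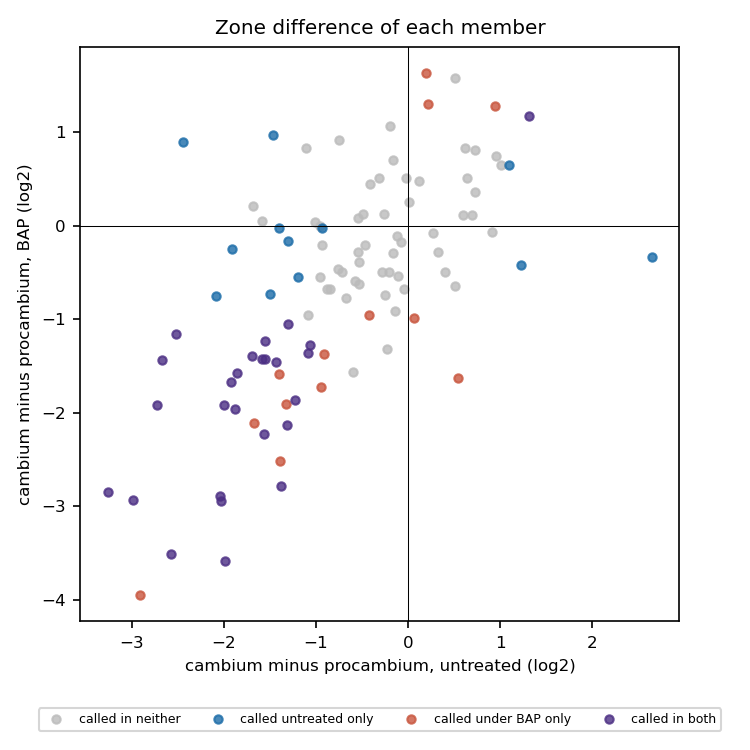
Difference of cambium minus procambium means (log2) for each of the 105 genes, untreated on the horizontal axis and with BAP on the vertical axis, coloured by calls. Purple points are the 26 genes called in both states, 25 lower and 1 higher in cambium on both axes.

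AT3G01190 read 7.04, 6.45 and 5.94 in BAP cambium and 10.67, 10.48 and 10.13 in BAP procambium, a difference of -3.95 (SE 1.10, adjusted p = 0.0128). AT4G18425 read 3.96, 3.11 and 4.67 and 7.70, 7.53 and 7.24 in the same zones, a difference of -3.58 (SE 0.57, adjusted p = 0.000236) and at least 5.63-fold lower in cambium against log2 5. AT2G38090 read 3.55, 4.57 and 3.38 and 7.76, 7.29 and 6.97, a difference of -3.51 (SE 0.37, adjusted p = 6.34e-06) and at least 5.06-fold. All BAP cambium arrays of AT4G18425 and AT2G38090 lay below log2 5, and all BAP procambium arrays well above. AT5G07080 differed by -2.94 (SE 0.47, adjusted p = 0.000219), at least 2.9-fold, with cambium arrays at 3.83, 2.98 and 3.96 and procambium arrays at 6.50, 6.18 and 6.93. AT5G12880 differed by -2.93 (SE 0.67, adjusted p = 0.00377), with 1 of 3 cambium arrays at log2 5 or more. For all 5 genes the procambium arrays were above every cambium array. Among the higher genes, AT4G27654 differed by 1.17 (SE 0.37, adjusted p = 0.0264), with cambium at 9.37, 9.46 and 8.85 and procambium at 8.10, 7.99 and 8.07. AT5G40470 differed by 1.28 (SE 0.41, adjusted p = 0.0281), with 1 of 3 procambium arrays at log2 5 or more. AT3G56810 (adjusted p = 0.00332) and AT4G12980 (adjusted p = 0.0411) lay below log2 5 on every array of both groups, so no size is given. They passed the filter through arrays of other groups, and their calls depend on the background model. Nothing is read from these 2 of the 4 higher calls. The call on AT4G27654 was lost without BAP cambium array 1 or 2 or BAP procambium array 1 or 2 or 3 (adjusted p from 0.0523 to 0.0948). The call on AT5G40470 was lost without BAP cambium array 1 or 2 or 3 or BAP procambium array 3 (adjusted p from 0.0552 to 0.14). The call on AT4G12980 was lost without BAP cambium array 1 or 2 or 3 or BAP procambium array 2 or 3 (adjusted p from 0.0568 to 0.119). It was lost with centred arrays and with quantile normalization as well (adjusted p = 0.0548 in each).

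Transition cambium against procambium with BAP gave 20 lower (19%) and 9 higher genes (8.57%), beside 13.5% and 15.7% of all probe sets, with 12 of the lower genes shared with the untreated comparison (75% of its 16 and 60% of the 20). Over all probe sets the shared ones were 53.9% of those lower without BAP and 49.9% of those lower with it. Without BAP transition cambium array 3 the total was 19. The lower genes with the largest differences were AT3G01190 at -5.70 (SE 1.10, adjusted p = 0.0013), AT5G12880 at -3.29 (SE 0.67, adjusted p = 0.002), AT2G37440 at -2.59 (SE 0.52, adjusted p = 0.00171), AT5G60350 at -2.49 (SE 0.54, adjusted p = 0.00307) and AT4G18425 at -2.22 (SE 0.57, adjusted p = 0.00925). Transition cambium arrays read 5.25, 5.78 and 3.15 for AT3G01190 and procambium arrays 10.67, 10.48 and 10.13. All transition cambium arrays of AT5G12880 and AT2G37440 lay below log2 5, which makes these at least 5.77-fold and at least 1.21-fold lower than in procambium. AT5G60350 and AT4G18425 each reached log2 5 on 2 of 3 transition cambium arrays. The higher genes with the largest differences were AT4G33420 at 2.19 (SE 0.45, adjusted p = 0.00221), AT3G56730 at 2.09 (SE 0.71, adjusted p = 0.0388), AT4G08160 at 1.91 (SE 0.58, adjusted p = 0.0218) and AT1G48750 at 1.64 (SE 0.37, adjusted p = 0.00389), besides AT3G56810 (adjusted p = 0.000511). AT3G56730 and AT4G08160 reached log2 5 on 1 of 3 procambium arrays each. AT4G33420 read 8.82, 8.51 and 9.15 in transition cambium and 7.73, 5.93 and 6.26 in procambium, a gap on every array. AT3G56810 reached log2 5 on 2 of 3 transition cambium arrays and on none of the procambium arrays, and with a transition cambium mean of 4.90 no size is given. The call on AT3G56730 was lost without BAP transition cambium array 1 or 2 or 3 or BAP procambium array 2 or 3 (adjusted p from 0.05 to 0.151). The call on AT4G08160 was lost without BAP transition cambium array 1 or 3 or BAP procambium array 1 or 3 (adjusted p from 0.0616 to 0.0975).

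In BAP cambium 7 genes were lower than in BAP transition cambium (6.67%) and 0 were higher (0%), beside 0.667% and 0.598% of all probe sets, and 22 of the 105 had an unadjusted limma p under 0.05, as did 10% of all probe sets. The median difference was -0.30 for the 105 genes and -0.01 for all probe sets. The genes were AT4G33420, AT1G70500, AT2G38090, AT5G43180 and AT1G48750 with the largest differences, and AT3G48185 (-1.86) and AT4G30450 (-1.71). AT4G33420 read 6.73, 6.46 and 5.74 in cambium and 8.82, 8.51 and 9.15 in transition cambium, a difference of -2.52 (SE 0.45, adjusted p = 0.0112). AT2G38090 differed by -2.40 (SE 0.37, adjusted p = 0.00358) and AT1G70500 by -2.40 (SE 0.50, adjusted p = 0.0288), each below log2 5 on all cambium arrays, so that they were lower by at least 2.34-fold and at least 2.12-fold. AT1G48750 read 9.44, 8.99 and 8.14 in cambium and 11.16, 10.71 and 11.11 in transition cambium, a difference of -2.14 (SE 0.37, adjusted p = 0.00855). AT5G43180 differed by -2.21 (SE 0.43, adjusted p = 0.0185), with 1 of 3 cambium arrays at log2 5 or more. The call on AT4G33420 was lost without BAP cambium array 3 (adjusted p = 0.0634). The call on AT1G70500 was lost without BAP cambium array 1 or 2 or BAP transition cambium array 2 or 3 (adjusted p from 0.0861 to 0.139). The call on AT5G43180 was lost without BAP cambium array 1 or 3 or BAP transition cambium array 2 or 3 (adjusted p from 0.0561 to 0.105). The count was 4 without BAP cambium array 1 or 2 or transition cambium array 3, and 3 without cambium array 3 or transition cambium array 2. Shares of all probe sets in these runs are not given, so nothing is read from the fall.

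The ARR5::GFP arrays had no part in the BAP differences, but the untreated procambium arrays they are compared with entered the rule, both for the level and for the drop, which favours genes that read high there. The counts are therefore not independent of how the genes were chosen. Reporter, seedling age, dissection and the presence of lateral root cap differ together between these cells and ARR15::GFP procambium, and cannot be told apart. Of the 105 genes 37 were lower in ARR5::GFP cells (35.2%) and 4 higher (3.81%), beside 17.5% and 14% of the 13465 probe sets tested. Of the other locus-code genes at log2 5 or more in every untreated zone, which were chosen for their level in ARR15::GFP procambium but not for a drop, 23.7% were lower and 10.4% higher. The median difference was -1.04 for the 105 genes, -0.126 for all probe sets and -0.33 for those other locus-code genes. On the 2 ARR5::GFP arrays the median of the 105 genes was 7.40 and 6.69, below both procambium arrays (8.37 and 7.95) and above all 3 BAP procambium arrays (5.93 to 6.20). Both ARR5::GFP arrays lay below both procambium arrays in 62 of the 105 genes and in 41.3% of the other locus-code genes, and the mean was higher than in procambium in 20. The count of 41 fell without untreated procambium array 1 or ARR5::GFP array 2, each of which leaves 1 array in its group. As the share of all probe sets in these runs is not given, nothing is read from the fall. RCPG stood at 14.01 ± 0.29 (n = 2) in these cells and 3.35 ± 0.57 (n = 2) in untreated procambium, and EXPA7 at 8.71 ± 1.47 and 2.82 ± 0.26; their part in the result was not tested.

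AT2G27740 read 3.84 and 4.46 in ARR5::GFP cells and 9.51 and 9.94 in untreated procambium, a difference of -5.57 (SE 0.92, adjusted p = 0.0003) and at least 26.4-fold lower against log2 5. AT3G56730 read 2.21 and 2.45 and 6.51 and 6.32, a difference of -4.08 (SE 0.85, adjusted p = 0.00171) and at least 2.66-fold lower. Both genes were below log2 5 on both ARR5::GFP arrays and above it on both procambium arrays. AT5G40020 read 4.27 and 5.27 against 9.06 and 9.67, a difference of -4.59 (SE 0.86, adjusted p = 0.000757). AT1G47410 read 5.68 and 4.76 against 9.13 and 9.85, a difference of -4.27 (SE 0.75, adjusted p = 0.000473). AT5G60350 read 5.37 and 4.83 against 8.85 and 9.05, a difference of -3.85 (SE 0.65, adjusted p = 0.000356). For these 3 genes 1 of the 2 ARR5::GFP arrays reached log2 5, and the groups stood far apart. The 4 higher genes were AT4G18425, AT5G40470, AT1G24440 and AT3G14340. AT4G18425 read 10.73 and 12.15 against 8.75 and 8.82, a difference of 2.66 (SE 0.72, adjusted p = 0.0105), and AT5G40470 read 8.42 and 9.11 against 6.92 and 5.37, a difference of 2.62 (SE 0.51, adjusted p = 0.00101). AT1G24440 differed by 1.63 (SE 0.44, adjusted p = 0.00967) and AT3G14340 by 1.58 (SE 0.44, adjusted p = 0.012). In each of the 4 genes both ARR5::GFP arrays lay above both procambium arrays. The call on AT4G18425 was lost without untreated procambium array 2 or ARR5::GFP array 2 (adjusted p from 0.0501 to 0.126). The call on AT1G24440 was lost without untreated procambium array 2 or ARR5::GFP array 2 (adjusted p from 0.0772 to 0.0957). The call on AT3G14340 was lost without untreated procambium array 1 or ARR5::GFP array 1 (adjusted p from 0.068 to 0.0912). The call on AT5G40470 held, with 1.84 without procambium array 2 and 3.39 without array 1.

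Of the 105 genes 104 were found in the reference gene table (TAIR10.1). Genes of the set within 10 genes of each other on a chromosome formed 7 pairs, of which only AT4G30450 and AT4G30460 are adjacent. AT4G30460 read 5.88, 6.13 and 4.35 in untreated cambium, 5.81 and 6.30 in transition cambium and 7.12 and 4.34 in procambium, and between 3.26 and 4.38 on the BAP arrays. It was at least 1.37-fold lower after BAP in cambium, at least 2.07-fold in transition cambium and at least 1.66-fold in procambium. As with AT4G30450, untreated procambium array 1 read above array 2 and ARR5::GFP array 1 (7.82 and 5.29) above array 2, while untreated cambium array 3 and procambium array 2 of AT4G30460 were as low as the BAP arrays. AT3G03180 and AT3G03210 have 2 genes between them, and the others, AT1G70500 with AT1G70550, AT2G17660 with AT2G17710, AT2G37440 with AT2G37520, AT3G01190 with AT3G01260 and AT5G37480 with AT5G37550, 6 to 8. Of these, AT3G01190 was lower and AT3G01260 higher in untreated transition cambium than in procambium, a call that did not hold for AT3G01260 with single arrays left out.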

How the data were processed

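Per the labels' protocols, RNA of GFP-positive root protoplasts was amplified and hybridised to ATH1 arrays. The authors deposited log2 signals, computed with GCRMA per the submitters' processing notes; neither the version nor which arrays were normalized as 1 set is given in the sources used here. Arrays have no read depth, and their number limits the precision. Replicates are biological according to the labels. The p-values set a difference against the spread between replicate arrays, which limma estimated over all groups of a fit and moderated over all probe sets.

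Control probe sets (64) were dropped, and a gene was named only from a probe set with 1 gene in the platform annotation (13513 of 22746). Members, lists and comparisons were chosen with earlier results of these data known. Probe sets with at least 2 arrays at log2 5 were fitted with limma 3.58.1 in R 4.3.3, 1 mean per group and a variance prior with an intensity trend, on the deposited values without further scaling: 13202 over the 16 ARR15::GFP arrays (10 residual degrees of freedom) and 13465 over all 18 (11) for the ARR5::GFP comparison. A Benjamini-Hochberg adjusted p under 0.05, taken over all of them, made a call. BAP differences, which chose the genes, have no test.

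Genes named are the 12 with the largest mean drop, the 6 with the highest untreated mean, the 3 nearest inside and outside each limit, and up to 5 called genes per direction and comparison. After the values were seen, others were named for a listed name, for a range of drops of 2 or more, as neighbours or to complete a list of calls. Functional classes and promoter motifs were not analysed here. Alternatives were 2 scalings, 2 filters, no intensity trend, the arrays of the 2 groups alone, a replicate block, leaving out each array, and other limits of the rule. Figures were drawn with matplotlib 3.10.9.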

Additional observations from a re-analysis of the deposited data

How the results depend on the processing

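None of the 7 comparisons of zones or reporters reversed for a named gene under any alternative run that tested it: for the 53 named results, 533 values kept their call and direction and 101 kept the direction but lost the call, 65 with 1 array left out, 16 without the filter, 12 with the 2 groups alone, 4 with centred arrays, 3 with the replicate block and 1 with quantile normalization. Named genes that failed the filter of a run were not tested in it and are in neither count. This was so for AT3G56810 and AT4G12980 in BAP cambium against BAP procambium with the 2 groups alone. Without the filter on dim probe sets the called genes were 25 in untreated cambium against procambium, 17 in transition cambium against procambium, 0 in cambium against transition cambium and 1 in the last with BAP, where more probe sets share the adjustment. With only the arrays of the 2 groups in the fit, which leaves fewer degrees of freedom, they were 20, 12 and 0 for the untreated comparisons and 18 for ARR5::GFP cells. Shares of all probe sets in the alternative runs are given only where stated. Nothing about the 105 genes is read from counts, here or above, that have no such share beside them. Deviations from the group means correlated at -0.523 to 0.278 over 36 pairs of same-numbered arrays, with 2 above 0.1. Over 70 pairs of arrays with different numbers they correlated at -0.345 to 0.523, with 21 above 0.1. These correlations cannot decide whether the replicate numbers pair the arrays. In a group of 2 arrays the deviations mirror each other, which ties the values of same and different numbers. The title of untreated procambium array 2 carries a 3 in its first part and replicate 2 in its second, and 2 was used. A block on these numbers does not take up deviations that arrays share under other numbers. With the replicate block 34 genes were called in untreated cambium against procambium and 4 in BAP cambium against transition cambium. Leaving out 1 array gave 21 to 36 calls in untreated cambium against procambium, 13 to 22 in transition cambium against procambium, 0 to 3 in cambium against transition cambium, 27 to 33, 19 to 28 and 3 to 6 in the same comparisons with BAP, and 24 to 40 for ARR5::GFP cells; the cause was not tested. The shares of all probe sets called fell as well, from 18.4% to 13.4% higher in untreated cambium without procambium array 2. The rule found 164 genes with a drop of 0.8, 61 with 1.2, and 86 to 116 with 1 array left out, of which the lowest count, without untreated transition cambium array 2, shares 81 with the 105. Centring the arrays gave 92 genes, 87 of them shared, and quantile normalization 98, 96 of them shared. Signals below log2 5 on all BAP arrays leave only a bound for 36 drops in cambium, 22 in transition cambium and 21 in procambium.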
